A study of Homo sapiens with 8 samples.

Results

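Genes that carry small nucleolar RNAs (snoRNAs) in their introns and release a spliced noncoding RNA were followed in cultured human cells given sodium benzoate (SB). The 10 genes are GAS5, ZFAS1, SNHG1, SNHG5, SNHG6, SNHG7, SNHG8, SNHG12, SNHG15 and SNHG16. They were chosen by name and with earlier results of these data known, as were the lists of genes set beside them. A row among the 14526 genes of the RPKM table (reads scaled to gene length and library size) was found for 10 of the 10. RNA was sequenced from 4 control replicates and from 4 replicates kept with 10 mM SB for 24 h, all grown in DMEM with 10% FBS and labelled HepG2, a hepatoblastoma-derived line often used as a model of hepatocytes. The design text calls the replicates of each group biological, and no genetic change separates the groups.

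Small nucleolar RNAs guide chemical modification of ribosomal and spliceosomal RNA. Box C/D snoRNAs (SNORD) direct 2′-O-methylation and box H/ACA snoRNAs (SNORA) direct pseudouridylation. In human cells most of them are cut out of introns after splicing, so one transcript yields both a snoRNA and a spliced host RNA. The spliced RNA of several noncoding hosts is known to be short-lived, since short open reading frames bring it to ribosomes and to nonsense-mediated decay. Many host genes start transcription at a C followed by a run of pyrimidines, the 5′TOP feature they share with ribosomal protein genes. GAS5 was named for its accumulation in growth-arrested cells, in which translation is low.

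The reads recovered from the RPKM values ranged from 36990091 to 44878446 per library. Control replicate 1 stood apart from the other libraries of its group: the chi-square per degree of freedom over genes was 33.4 to 38.4 for its pairs, and 1.52 to 3.8 for every other pair within a group. For this reason results are also given without it. The liver label was checked against 20 hepatocyte markers, of which 18 have no row. The table therefore goes against the label, and the cells are called here by their label only. Of 5 fibroblast markers 3 had a row (COL1A1, COL3A1 and LUM), with a sum of 6.13 to 8.32 RPKM in the controls and 6.07 to 6.29 RPKM with SB. None of 3 endothelial and 3 blood markers had a row. The part of these markers in the results was not tested.

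The start of each gene is shown because the 5′TOP feature lies there. RefSeq promoter entries (GRCh38.p14) were found for 8 of the 10 genes, and those of SNHG15 and SNHG6 were not in the table. Each line gives 20 bases before and 30 bases from the annotated first transcribed base onward, read 5′ to 3′ on the gene's strand. Capitals mark a C within 10 bases of the annotated start and the pyrimidines (C or T) after it, where at least 5 follow.
SNHG12, chr1:28581844-28581893, minus strand: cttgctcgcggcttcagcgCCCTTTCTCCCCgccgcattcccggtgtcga
GAS5, chr1:173869016-173869065, minus strand: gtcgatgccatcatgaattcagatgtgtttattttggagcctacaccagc
SNHG8, chr4:118278742-118278791, plus strand: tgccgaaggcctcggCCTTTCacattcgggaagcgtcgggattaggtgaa
SNHG5, chr6:85678704-85678753, minus strand: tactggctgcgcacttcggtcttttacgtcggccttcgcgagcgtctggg
SNHG7, chr9:136728155-136728204, minus strand: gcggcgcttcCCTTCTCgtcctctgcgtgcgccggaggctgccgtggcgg
SNHG1, chr11:62855856-62855905, minus strand: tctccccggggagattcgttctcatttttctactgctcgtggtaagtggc
SNHG16, chr17:76557744-76557793, plus strand: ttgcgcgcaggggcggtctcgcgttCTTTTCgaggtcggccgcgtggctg
ZFAS1, chr20:49278622-49278671, plus strand: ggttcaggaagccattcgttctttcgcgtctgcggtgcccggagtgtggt

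Such a stretch was found in 4 of the 8 genes (50%), against 20.8% of 35116 RefSeq promoters. When 20 bases were allowed, 5 of the 8 genes (62.5%) held it, against 33.8% of all promoters. The first transcribed base was a C in 6 of the 8 (75%) and in 14.7% of all promoters, a property looked at after the windows were seen. Those with a stretch were SNHG12 and SNHG8, which were lower with SB, SNHG7, which was higher, and SNHG16, which was not called. In SNHG7 the whole pyrimidine run begins 14 bases before the start, so the capitals mark only its later part. When the first C of the whole run had to lie within 10 bases, a count made after the windows were seen, 3 of the 8 genes (37.5%) and 19.2% of all promoters held one, and SNHG7 was not among them. The RefSeq start and the outermost GENCODE start of the gene are the same base for SNHG7 and lie 37 to 199 bases apart for SNHG16, SNHG8, SNHG1, GAS5 and SNHG5, 464 bases for ZFAS1 and 1259 bases for SNHG12. Which start these cells use was not tested, and the counts depend on it. Short motifs were counted on both strands of the 300 bases around the starts. CACGTG was found in 1 of the 8 promoters (12.5%, against 7.26% of all), CGGAAG in 1 (12.5% against 19.5%), CCAAT in 2 (25% against 34.6%) and TATAAA in 2 (25% against 11.5%). A match is a run of letters and not evidence of binding.

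With SB, 7 of the 10 host genes were lower and 1 was higher at an adjusted p below 0.05 (limma on log2(RPKM + 1), Benjamini-Hochberg over all 14526 genes). Among all genes tested 32.6% were called lower and 33.0% higher. Because the 10 genes were chosen with earlier results known, the contrast with all genes is a description and no test. The values of the groups did not overlap in 6 genes that were lower and in 2 that were higher, against 30.5% and 31.0% of all genes. The median log2 fold change of the 10 genes was -0.62, against 0.00 over all genes. A call together with a log2 fold change below -0.5 was found for 6 of the 10 genes, and for 792 genes of the table (5.45%). These fold changes are on log2(RPKM + 1), which shrinks the change of low genes. Control means of the 10 genes were 28.6 RPKM or more, so the 2 shares are not for genes of like level. Summed over the 10 genes, the level was 2158 ± 126 RPKM in the controls and 1391 ± 10.0 RPKM with SB (SD, n = 4 each), which is 35.6% less. Without control replicate 1, 7 of the genes were called lower and 2 higher, and the median was -0.66. In that fit 5511 genes of the table were called lower and 5459 higher, against 4740 and 4787 with all samples. Fewer cells of one type and less RNA per cell cannot be told apart in such bulk samples.

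**Figure D1:**
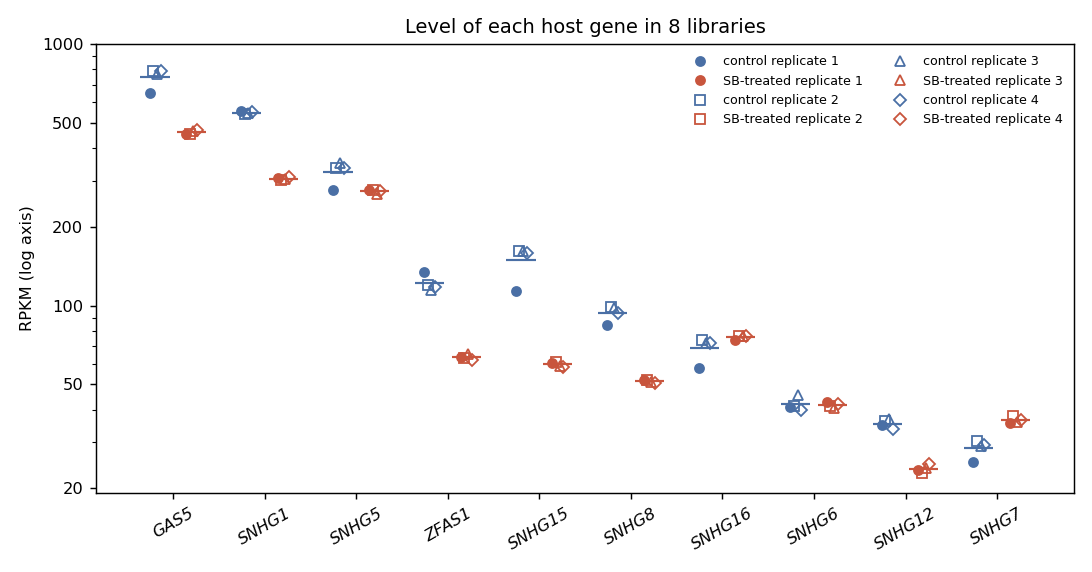
Level of each of the 10 host genes in RPKM (vertical log axis) in the 4 control replicates (blue) and the 4 SB-treated replicates (red). Each point is a library, its shape gives the replicate number, filled circles are replicate 1 and the lines are group means. GAS5 fell from 747 to 459 RPKM and SNHG15 from 149 to 59.6 RPKM, while SNHG7 rose from 28.6 to 36.5 RPKM.

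SNHG15, a noncoding RNA with 1 H/ACA snoRNA (SNORA9) in its span, fell most. It lies on chromosome 7 from 44983019 to 44986961, minus strand (GENCODE release 44 on hg38, as for the genes that follow). Its level was 114, 162, 162 and 159 RPKM in control replicates 1 to 4 and 60.1, 61.0, 59.0 and 58.4 RPKM in SB-treated replicates 1 to 4. Control replicate 1 was the low control, and even this library was above every SB-treated one. The log2 fold change was -1.30 ± 0.10 (SE, limma adjusted p = 4.90e-06), or 60.1% less. On the log2(RPKM + 1) scale, which shrinks the change of low genes, only 8 of the 14526 genes had a lower fold change. The log2 fold change of SNHG15 was -1.42 without control replicate 1.

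ZFAS1 takes its name from its place antisense to the start of ZNFX1, and its span holds 3 C/D snoRNAs (SNORD12, SNORD12B and SNORD12C). The gene occupies chromosome 20 from 49278178 to 49299600, plus strand. Controls gave 135, 119.6, 115 and 118 RPKM and SB-treated replicates 63.6, 62.9, 65.3 and 62.1 RPKM. Every SB-treated value was below the lowest control, and control replicate 1 was the highest. This is a log2 fold change of -0.93 ± 0.051 (SE, limma adjusted p = 7.96e-07), or 47.9% less, and -0.88 without control replicate 1.

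SNHG8, host of the H/ACA snoRNA SNORA24 on chromosome 4 (118278703 to 118285316, plus strand), fell by 0.85 on the log2 scale (SE 0.051, limma adjusted p = 1.10e-06). Its control values were 84.3, 98.6, 98.0 and 93.8 RPKM. With SB the values were 51.8, 52.0, 51.0 and 50.8 RPKM, a spread of 0.553 RPKM (SD, n = 4). The groups were far apart, and the mean was 45.1% lower.

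SNHG1 was the first noncoding gene described as a host of many snoRNAs, and its introns are known for a set of C/D snoRNAs. It spans chromosome 11 from 62851978 to 62855953, minus strand, and RefSeq places 9 snoRNAs inside. Control levels were 554, 538, 546 and 548 RPKM, and SB-treated levels were 307, 302, 306 and 309 RPKM. The replicates of each group lay close to each other (SD 6.70 and 2.88 RPKM), with control replicate 1 the highest control. The log2 fold change was -0.84 ± 0.03 (SE, limma adjusted p = 1.03e-07), or 44.1% less.

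GAS5, the most abundant of the 10 genes per length, spans chromosome 1 from 173858559 to 173868882, minus strand, and RefSeq places 11 snoRNAs inside it. In the controls it was measured at 647, 790.2, 766 and 787 RPKM, and with SB at 452, 451, 465 and 470.3 RPKM. Control replicate 1 was again the low control and still above every SB-treated library. GAS5 fell by 0.70 on the log2 scale (SE 0.063, limma adjusted p = 1.04e-05), or 38.5%. Between 10968 and 20321 reads per library stood behind these values.

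SNHG12, whose span holds SNORA44, SNORA61, SNORA16A and SNORD99, lies on chromosome 1 from 28578538 to 28583132, minus strand. Controls ranged over 34.9, 36.2, 36.9 and 33.7 RPKM, and SB-treated replicates over 23.6, 22.9, 24.0 and 24.9 RPKM. The 2 sets of values did not overlap and control replicate 1 lay within its group. SNHG12 had a log2 fold change of -0.55 ± 0.041 (SE, limma adjusted p = 3.44e-06), or 32.7% less.

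SNHG5 hosts the C/D pair SNORD50A and SNORD50B, and it showed the smallest fall that was called. The gene lies on chromosome 6 from 85650491 to 85678932, minus strand. Control replicate 1 measured 276 RPKM, inside the SB-treated range, and controls 2 to 4 measured 336, 352 and 335 RPKM. SB-treated values were 277, 276, 266 and 275 RPKM. The groups thus overlapped through 1 library, and the exact two-sided permutation test gave p = 0.0571. The log2 fold change was -0.24 ± 0.068 (SE, limma adjusted p = 0.011). It was -0.32 without control replicate 1, and the call was lost without TMM scaling (-0.14, limma adjusted p = 0.114).

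SNHG7 was the only one of the 10 genes called higher. It holds 2 H/ACA snoRNAs, SNORA17A and SNORA17B, and spans chromosome 9 from 136721366 to 136728184, minus strand. Levels were 25.3, 30.4, 29.1 and 29.4 RPKM in the controls and 35.7, 37.8, 36 and 36.5 RPKM with SB. All SB-treated values were above all controls, and control replicate 1 was the lowest. The log2 fold change was 0.35 ± 0.055 (SE, limma adjusted p = 4.06e-04), a level 27.8% higher, and 0.29 without control replicate 1.

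SNHG16, host of SNORD1A, SNORD1B and SNORD1C on chromosome 17 (76557727 to 76670985, plus strand), was not called. Its controls were 57.6, 74.1, 71.8 and 72.1 RPKM and its SB-treated values 74.2, 76.8, 76.2 and 76.8 RPKM. The groups did not overlap, but control 2 and SB-treated replicate 1 lay side by side, and the spread of the controls came from replicate 1. Its log2 fold change was 0.15 ± 0.072 (SE, limma adjusted p = 0.10). It passed the test without control replicate 1 with a smaller value (0.06, limma adjusted p = 0.0462), and without TMM scaling (0.25, limma adjusted p = 0.015).

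SNHG6, whose span holds the C/D snoRNA SNORD87, showed no detectable difference. Controls were 40.9, 41.5, 45.5 and 39.8 RPKM, and SB-treated replicates 42.8, 41.3, 40.7 and 41.9 RPKM. The ranges overlapped, the log2 fold change was -0.01 ± 0.045 (SE, limma adjusted p = 0.896) with its sign turned to 0.10 without TMM scaling, and the exact two-sided permutation test gave p = 0.914. For 8 of the 10 genes that test gave 0.0286, the smallest p that 4 against 4 samples allow.

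**Figure D2:**
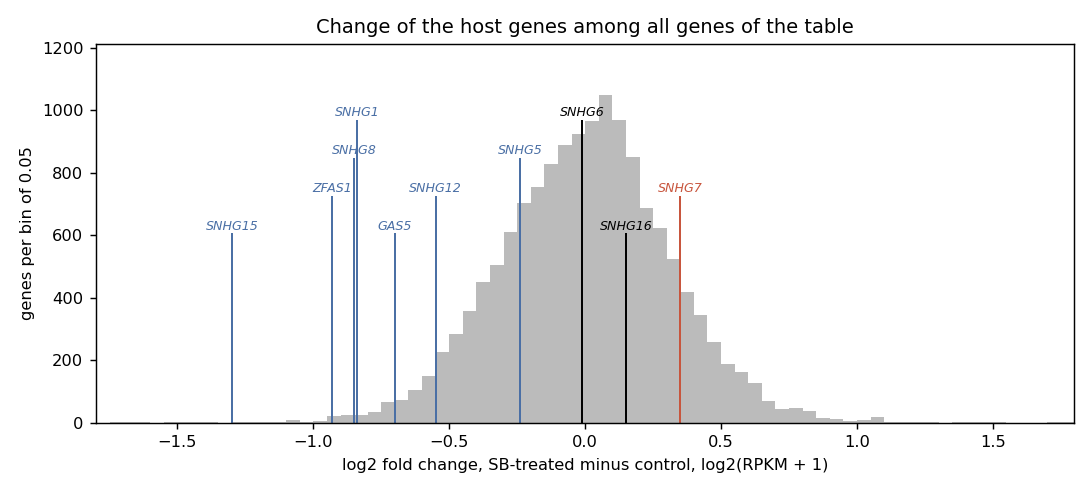
Histogram of the log2 fold change (SB-treated minus control, on log2(RPKM + 1)) of all 14526 genes in bins of 0.05, with a line for each host gene. Blue lines are genes called lower, red called higher and black not called, and line heights only separate the names. SNHG15 lies at -1.30 in the left tail, and SNHG6 at -0.01 in the middle of the histogram.

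The order of the genes by level changed with SB. In the controls the order by RPKM was GAS5, SNHG1, SNHG5, SNHG15, ZFAS1, SNHG8, SNHG16, SNHG6, SNHG12 and SNHG7, and the ranges of neighbours overlapped between SNHG15 (114 to 162 RPKM) and ZFAS1 (115 to 135 RPKM). With SB the order was GAS5, SNHG1, SNHG5, SNHG16, ZFAS1, SNHG15, SNHG8, SNHG6, SNHG7 and SNHG12, and no neighbours overlapped. SNHG16 moved from the 7th to the 4th place, and SNHG7 and SNHG12 changed places at the low end. As a share of the summed RPKM of the 10 genes, SNHG15 went from 6.89% ± 0.721 to 4.29% ± 0.111 and SNHG5 from 15.0% ± 0.743 to 19.7% ± 0.385 (SD, n = 4). GAS5 held 34.6% ± 1.25 of the sum in the controls and 33.0% ± 0.515 with SB. The spread within groups was unequal as well: the coefficient of variation of single genes ran from 1.23% to 15.6% in the controls, from 0.963% to 7% in control replicates 2 to 4, and from 0.943% to 3.47% with SB. Control replicate 1 was the lowest control in 6 of the 10 genes and the highest in 2.

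Whether the genes changed by unequal amounts was asked with the ratio of each pair within a library, in which library scaling cancels apart from the pseudocount. Of 45 pairs, 39 had an adjusted p below 0.05 for a shift of the log2 ratio (exact two-sided permutation test, Benjamini-Hochberg over the 45, largest value among them 0.033). Pairs of other genes were not examined, so the count cannot be set against theirs. Of all single genes, 30.5% were lower and 31.0% higher with groups that did not overlap. SNHG15 fell relative to SNHG7 by 1.64 and relative to GAS5 by 0.60 on the log2 scale. GAS5 rose relative to SNHG1 by 0.14, which is 0.07 without control replicate 1. The 6 pairs without a call were SNHG1 with SNHG8 (shift of 0.01, adjusted p = 0.857 in the exact test), SNHG1 with ZFAS1 (0.09, exact test adjusted p = 0.0643), ZFAS1 with SNHG8, ZFAS1 with SNHG15, GAS5 with SNHG12, and SNHG16 with SNHG6. Without control replicate 1 no pair can pass such a test (smallest p of 0.0571 for the exact test of 3 against 4), and the values of the groups did not overlap in 41 of the 45 pairs, against 39 with it. Among the pairs that then no longer overlapped were ZFAS1 with SNHG15 (shift of 0.54, against 0.37 with all samples) and GAS5 with SNHG12 (a ratio lower by a log2 shift of -0.21, against -0.14). The ratio of SNHG1 to SNHG8 was 2.53 in the controls and 2.55 with SB on the log2 scale.

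**Figure D3:**
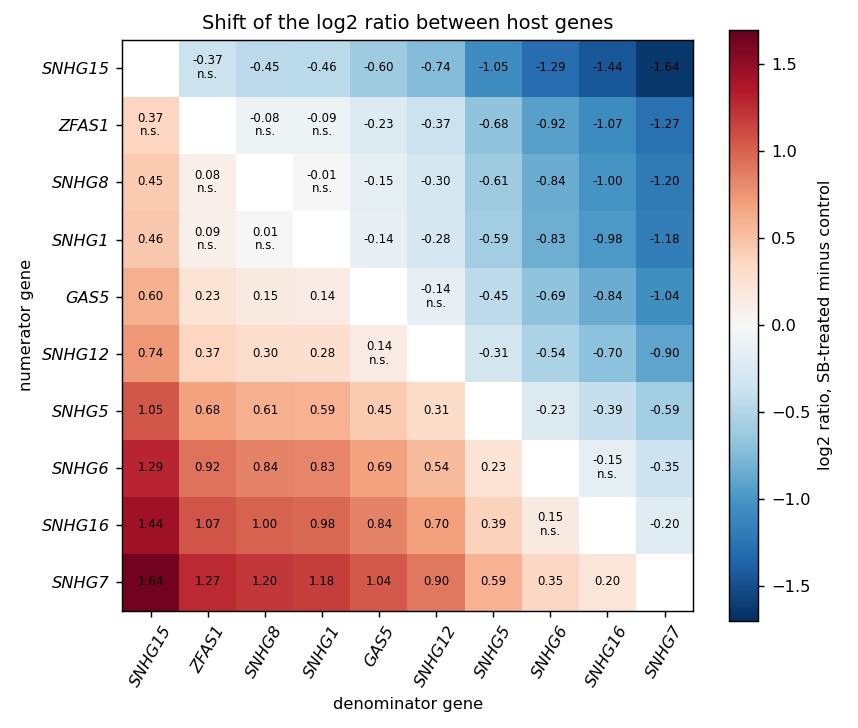
Shift with SB of the log2 ratio between each pair of the 10 host genes (row gene over column gene, SB-treated minus control), with genes ordered by their own fold change. Red is a rise of the ratio and blue a fall, and n.s. marks the 6 pairs with an adjusted p of 0.05 or more. SNHG1, SNHG8 and ZFAS1 form a block of small shifts (0.01 to 0.09 in size), and the corner pair of SNHG15 over SNHG7 stands at -1.64.

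Only part of the snoRNAs had a row. The paper names the RNeasy Mini Kit for the RNA, and how much RNA of this short length was kept was not tested. RefSeq places 37 snoRNAs inside the 10 genes, and 16 of them had a row of their own, 14 of the C/D and 2 of the H/ACA class. For 15 of the 16 rows the length used in the RPKM equals the RefSeq length, and SNORD81 was counted over 43 bases in place of 77. Between 24 and 233 reads per library stood behind a row. A read inside such a row can come from the snoRNA or from the unspliced host transcript, which cannot be told apart here.

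Of the 16 rows, 10 were lower with SB and 0 were higher, with a median log2 fold change of -0.41 (limma, adjusted p below 0.05). Over all genes 32.6% were called lower and 33.0% higher. For the 16 rows voom on the recovered reads called 9 lower and 0 higher. Without control replicate 1, 10 were lower, as were 5511 of all 14526 genes. The groups did not overlap in 7 of the 16 rows, all of them lower, against 30.5% of all genes lower and 31.0% higher. The 7 are shown as the rows whose samples separate, from RefSeq positions on hg38, read 5′ to 3′ on the strand of the host. Capitals mark the first TGATGA, the letters of box C, and the last CTGA, the letters of box D.
SNORD47 in GAS5, chr1:173864369-173864445, minus strand: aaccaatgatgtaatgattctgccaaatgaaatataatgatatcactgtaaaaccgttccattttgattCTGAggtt
SNORD79 in GAS5, chr1:173865350-173865430, minus strand: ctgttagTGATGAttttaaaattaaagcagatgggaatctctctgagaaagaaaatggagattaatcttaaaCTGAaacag
SNORD44 in GAS5, chr1:173865968-173866028, minus strand: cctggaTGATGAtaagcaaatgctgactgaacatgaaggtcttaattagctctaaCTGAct
SNORD76 in GAS5, chr1:173866635-173866715, minus strand: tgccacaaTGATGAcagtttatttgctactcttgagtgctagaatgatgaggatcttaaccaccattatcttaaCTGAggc
SNORD22 in SNHG1, chr11:62852910-62853035, minus strand: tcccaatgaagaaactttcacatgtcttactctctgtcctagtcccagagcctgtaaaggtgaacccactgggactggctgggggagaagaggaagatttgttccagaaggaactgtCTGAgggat
SNORD31 in SNHG1, chr11:62853326-62853393, minus strand: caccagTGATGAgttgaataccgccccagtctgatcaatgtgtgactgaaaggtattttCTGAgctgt
SNORD30 in SNHG1, chr11:62853663-62853732, minus strand: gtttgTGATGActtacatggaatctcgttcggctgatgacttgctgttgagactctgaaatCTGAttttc

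Box D letters were present in 7 of the 7 and box C letters in 5, all but SNORD47 and SNORD22. Inside GAS5, 5 of 6 rows were lower. SNORD47 measured 71.1, 48.8, 56 and 52.8 RPKM in the controls and 41.2, 30, 36.8 and 37.1 RPKM with SB, a log2 fold change of -0.64 (limma adjusted p = 0.00119). SNORD44 measured 28.9, 37.9, 34 and 32.9 RPKM against 20.9, 26.8, 27.9 and 20.8 RPKM (-0.46, limma adjusted p = 0.00447). Both sets were apart with little room between them. SNORD76 gave -0.55 and SNORD79 -0.27. SNORD81 (-0.35, limma adjusted p = 0.031) was a weak call, lost in 6 of 8 fits that left out 1 library, and SNORD80 was called only without control replicate 1 (-0.44, against -0.27 with it).

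Inside SNHG1, 5 of 8 rows were lower. SNORD31 had 21.1, 23.9, 19.3 and 22 RPKM in the controls and 14.5, 12.2, 9.73 and 10.7 RPKM with SB (log2 fold change -0.83, limma adjusted p = 1.05e-04), close to the -0.84 of its host. SNORD22 followed with 28.2, 27.6, 28.9 and 27.6 RPKM against 19.4, 14.2, 17.6 and 19.4 RPKM (-0.65, limma adjusted p = 1.24e-04). SNORD30 gave -0.51, SNORD25 -0.72 and SNORD29 -0.43, the last a call lost in 4 of the 8 fits without 1 library. SNORD28, from the same transcript, was 13.8 ± 2.37 RPKM in the controls and 14.1 ± 1.74 RPKM with SB (SD, n = 4). SNORD26 (-0.39) was not called, though it was without SB-treated replicate 1 (-0.49, limma adjusted p = 0.0392). SNORD27 (-0.19) was not called, and neither were SNORA9 in SNHG15 (-0.31, beside -1.30 for its host) and SNORA61 in SNHG12 (-0.04, beside -0.55). Among the other 17 snoRNA rows of the table, 10 were lower and 0 higher, with a median of -0.51.

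**Figure D4:**
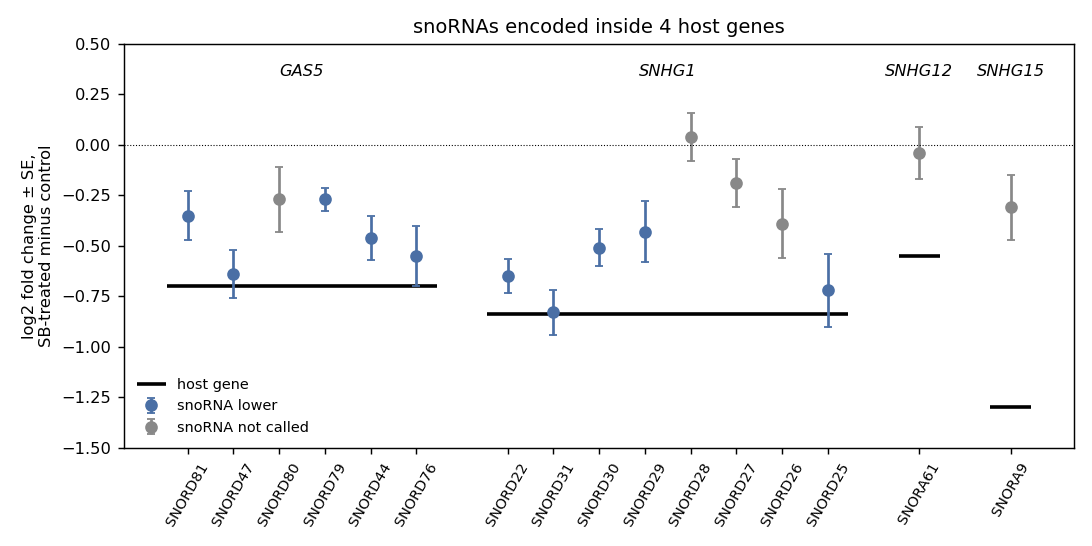
Log2 fold change ± SE (SB-treated minus control) of the 16 snoRNA rows that lie inside GAS5, SNHG1, SNHG12 and SNHG15, with a black line at the fold change of the host gene. Blue points are snoRNA rows called lower and grey points were not called, and reads of a row can come from the snoRNA or the unspliced host. SNORD31 at -0.83 lies on the line of SNHG1, and SNORA9 at -0.31 lies far above the -1.30 of SNHG15.

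Most other noncoding host genes in the table were lower as well. Of 24 listed, 13 had a row, and 10 of these were lower (76.9%) and 0 higher (median -0.41). Over all genes 32.6% were called lower and 33.0% higher. Without control replicate 1, 12 of the 13 were lower, and so were 5511 of all 14526 genes (4740 with all samples). All 13 were listed by name, and the annotation used below did not find SNHG10, SNHG20 and SNHG21 as hosts. SNHG17 had the largest fall, from 75.7 ± 9.44 to 33.8 ± 0.780 RPKM (SD, n = 4; log2 fold change -1.13, limma adjusted p = 2.95e-06). C6orf48 went from 48.3 to 22.5 RPKM (-1.07), SNHG11 from 19.5 to 9.58 RPKM (-0.95), EPB41L4A-AS1 from 34.9 to 18.3 RPKM (-0.90) and SNHG9 from 22.6 to 12.6 RPKM (-0.78). Smaller falls were measured for SNHG3 (-0.42), SNHG4 (-0.41), SNHG21 (-0.40), LRRC75A-AS1 (-0.36) and SNHG10 (-0.14). The call of SNHG10 (limma adjusted p = 0.0227) was lost without control replicate 3, SB-treated replicate 2 or SB-treated replicate 4 (adjusted p from limma of 0.0501, 0.0649 and 0.063). SNHG19 (-0.33) and SNHG20 (-0.13) were called only in some settings, among them without control replicate 1 (-0.53 and -0.16), and DANCR stood at 58.4 ± 1.64 and 61.4 ± 0.685 RPKM (0.07, limma adjusted p = 0.0786).

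Hosts were also collected from the annotation, by snoRNAs that lie inside a gene of the table, with a strand known for 521 of 1199 snoRNA entries and the others placed by position alone. Of 17 noncoding hosts found in this way 10 were lower (58.8%) and 3 higher (17.6%), but 10 of the 17 belong to the list just described. The 7 that do not gave 2 lower and 3 higher, with a median of -0.09. LOC100130691 had the largest rise of the 17, from 0.810 to 1.5 RPKM, which is 0.47 on the log2(RPKM + 1) scale and 0.89 by voom on the reads. Among 397 protein-coding hosts, 268 of them placed by position alone and so possibly on the other strand, 154 were lower (38.8%) and 128 higher (32.2%), with a median of -0.02, near the shares of the whole table. The largest rise there was that of CFAP70, a gene of cilia, from 2.09 to 6.03 RPKM (1.19). In a shorter list of 27 well-known protein-coding hosts 18 were lower (66.7%) and 4 higher (14.8%), with a median of -0.27. The lists are not separate sets. NOP56, NOP58 and DKC1 are also among the snoRNP proteins below, and several ribosomal protein genes are among the 397. Of all genes 32.6% were called lower and 33.0% higher. NOP56, a core protein of C/D particles that also carries snoRNAs, fell from 196 to 103 RPKM (-0.92), and HSPA8, the constitutive HSP70 chaperone and a host as well, rose from 113 to 251 RPKM (1.14).

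The proteins that bind and assemble snoRNAs were lower in the main comparison. Of 18 listed 17 had a row, and 17 of the 17 were called lower, with a median of -0.55, where 32.6% of all genes were called lower. Fibrillarin (FBL), the methyltransferase of C/D particles, went from 383 to 257 RPKM (-0.57), and DKC1, the pseudouridine synthase of H/ACA particles, from 92.7 to 56.6 RPKM (-0.70). The largest fall was that of NUFIP1, an assembly factor, from 13.9 ± 1.01 to 6.03 ± 0.236 RPKM (-1.08, limma adjusted p = 3.96e-07), and the smallest that of ZNHIT3 (-0.16). ZNHIT3 lost its call without TMM scaling (-0.06, limma adjusted p = 0.296) and without SB-treated replicate 2, 3 or 4, which left 16 of the 17. FBL, DKC1 and ZNHIT3 were named after their values were seen.

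Factors of nonsense-mediated decay and its exon junction complex were called in both directions, as were genes of the whole table. Of 17 genes 8 were lower (47.1%, against 32.6% of all genes) and 4 higher (23.5%, against 33.0%), with a median of -0.14. MAGOHB, a subunit of the exon junction complex, fell from 13.4 to 7.62 RPKM (-0.73), and SMG6, the endonuclease of the pathway, rose from 8.31 to 10.4 RPKM (0.30). The helicase UPF1 (0.29) and the adaptor SMG5 (0.20), chosen after their values were seen, were higher as well. Of 82 cytosolic ribosomal protein genes, the classical 5′TOP genes, 57 were lower (69.5%) and 1 higher (1.22%) with a median of -0.22. RPL35 had the largest fall in that list (1767 to 1260.2 RPKM, -0.48), and RPL36AL was the gene that rose (78.2 to 98.6 RPKM, 0.33). Control replicate 1 bears on the ribosomal count, since 75 were lower and 2 higher without it. Calls over the whole table rose as well, from 4740 to 5511 lower and from 4787 to 5459 higher.

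**Figure D5:**
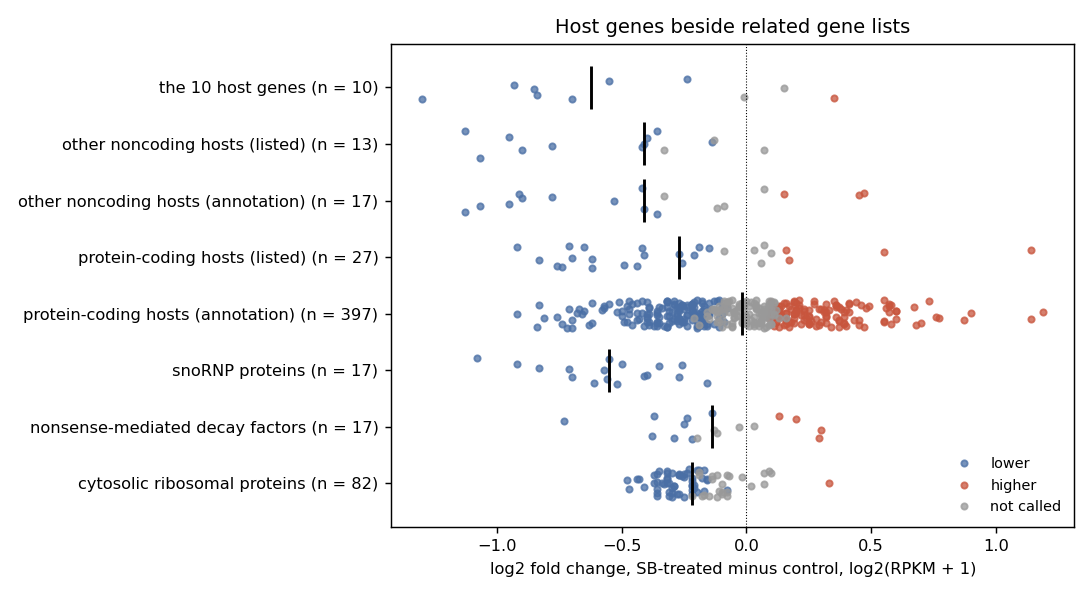
Log2 fold change (SB-treated minus control, horizontal axis) of the genes of 8 lists, 1 point per gene with random vertical spread, blue for genes called lower, red for higher and grey for not called, and a black bar at the median. The 10 host genes have their median at -0.62 and the snoRNP proteins at -0.55, while the 397 annotated protein-coding hosts are centred at -0.02. Some genes are in several lists.

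Near the annotated start of GAS5, SNHG1 and ZFAS1 lies the start of a protein-coding gene on the other strand that has a row. The distances depend on the annotated starts, and whether the genes of a pair share a start region was not tested. The start of GAS5 lies 800 bases from that of ZBTB37, a zinc finger gene, which rose from 3.01 ± 0.226 to 5.16 ± 0.162 RPKM (log2 fold change 0.62, limma adjusted p = 3.43e-06). Its values were 2.88, 3.15, 2.77 and 3.26 RPKM in the controls and 5.36, 5.08, 5.20 and 4.98 RPKM with SB, opposite in direction to GAS5. SLC3A2, which encodes the heavy chain of several amino acid transporters, starts 51 bases from SNHG1 and measured 111 ± 12.5 and 123 ± 3.61 RPKM (0.15, limma adjusted p = 0.114). ZNFX1, 248 bases from ZFAS1, measured 3.92 ± 0.185 and 3.8 ± 0.0597 RPKM (-0.04, limma adjusted p = 0.412; SD, n = 4 throughout). Neither passed this test, while SNHG1 and ZFAS1 were called lower. Without control replicate 1 SLC3A2 stood at 0.06 and was not called, and ZNFX1 was called lower (-0.06, limma adjusted p = 0.0337). Without TMM scaling SLC3A2 was called higher (0.25, limma adjusted p = 0.0181). In the annotation GAS5, ZFAS1, SNHG8, SNHG16, SNHG6, SNHG12 and SNHG7 overlap a gene on the other strand. The library kit keeps the strand but the strand setting of the counting is not given in the sources used here, so reads from such overlaps cannot be assigned with certainty.

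The 5 genes whose values over the 8 samples were most like the mean standardised profile of the 10 host genes were SLC22A18 (Pearson r = 0.9953), RAMP1 (0.9928), DHPS (0.9920), ETFB (0.9916) and SDF4 (0.9909). Each was lower with SB, by between 0.16 and 0.46 on the log2(RPKM + 1) scale, and had its lowest control value in replicate 1. SLC22A18 is a low gene (1.45 RPKM in the controls and 0.815 RPKM with SB), with -0.42 on that scale and -0.78 by voom. These correlations describe 8 libraries in 2 groups and carry no test.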

How the data were processed

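RNA from 4 control and 4 SB-treated replicates was sequenced by the authors as short single reads from a stranded total RNA kit. Per the labels and the methods, the authors mapped to hg38 with TopHat2 2.1.0, counted with featureCounts 1.5.0, filtered genes (CPM over 1 in 2 or more samples) and scaled libraries by TMM in edgeR 3.16.5. The authors deposited RPKM per gene and library. Their log2 fold change, mean log2 CPM, p-value and FDR columns were not used. Per-sample columns left unused numbered 0.

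Whole reads were recovered for 100% of genes (tolerance 0.002). The groups were compared with limma 3.58.1 (R 4.3.3) on log2(RPKM + 1), with eBayes and Benjamini-Hochberg adjustment over 14526 genes. The pseudocount shrinks the fold change of low genes. Recovery and test were tested on simulated data. Unlike the data here, these held no outlying library and few or no changed genes. Single values used exact two-sided permutation tests (scipy 1.17.1, Python 3.11.15). Positions came from GENCODE release 44 and RefSeq.

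Named were all 10 genes, the called gene with the largest rise and fall of each list, other noncoding hosts and head-to-head neighbours with a row, and the 5 genes most alike. Members and lists were chosen with earlier results of these data known. Alternatives were a pseudocount of 0.1, no TMM factors, median-of-ratios scaling, a mean RPKM of at least 1, an intensity trend, voom with recovered reads, a replicate block, and leaving out each sample. ChIP-seq was not analysed here.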

Additional observations from a re-analysis of the deposited data

Results flagged for a closer look

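In a group of 4 samples, a library was marked when its gap to the nearest other, divided by the range of the group, exceeded Dixon's 95% value. Of 102 groups examined 17 were marked, where chance gives about 1 in 20 (5.10 groups), and 11 of the 17 were control replicate 1. Among the 10 host genes this share of the range was 0.943 for SNHG15, 0.877 for SNHG16 and 0.842 for GAS5, each with control replicate 1 lowest, and 0.854 for SNHG5, with SB-treated replicate 3 lowest.

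Control replicate 1 was also the lowest control for SNHG17 (0.865), LRRC75A-AS1 (0.851), SLC3A2 (0.855), ZNFX1 (0.912) and SMG6 (0.922). It was the highest control for SNORD26 (0.867), HSPA8 (0.967) and MAGOHB (0.830). Among SB-treated replicates, replicate 4 was lowest for SNHG3 (0.837), replicate 3 lowest for SNORD79 (0.880), replicate 1 lowest for SLC3A2 (0.859), replicate 2 lowest for LOC100130691 (0.848) and replicate 2 highest for DANCR (0.872).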

How the results depend on the processing

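For the 10 host genes 150 alternative values were computed, of which 144 kept direction and call. The genes called lower numbered 7 in each alternative but 1, which was no TMM factors (6, SNHG5 lost). Leaving out single replicates gave 7 throughout for lower and 1 to 2 for higher, the 2 without control replicate 1. Without that library 5511 genes of the table were called lower and 5459 higher. Without TMM factors, which moves the median log2 ratio of all genes from 0.008 to 0.113, 3357 genes were lower and 6253 higher, against 4740 and 4787. The counts of genes called higher then became 2 of the host genes, 1 of the other noncoding hosts (0 before) and 4 of the ribosomal protein genes (1 before), and SNHG6 (0.095), SNORA61 (0.055) and ZNFX1 (0.048) turned positive with no call. Voom called 2 ribosomal protein genes higher, and leaving out single replicates gave 1 to 2. SNHG6 also turned positive without control replicate 3 (0.032) or SB-treated replicate 3 (0.0043), SNORA61 without SB-treated replicate 4 (0.093), and SNORD28 negative without control replicate 2 (-0.065), SB-treated replicate 1 (-0.013) or SB-treated replicate 3 (-0.0078). Over all single replicates left out, SNHG6 ran from -0.032 to 0.032, SNORD28 from -0.065 to 0.12 and SNORA61 from -0.13 to 0.093. The cause of these shifts was not tested beyond the scaling or the sample left out. Deviations of same-numbered replicates correlated at 0.38, 0.327, 0.173 and -0.16. Replicates of unlike number were not compared, so these values do not settle whether the numbers pair the samples. The main fit did not pair them. With the replicate number as a block 7 host genes were lower and 1 higher, and 12 other noncoding hosts were lower in place of 10. The block also brought calls for SNORD26 (lower, adjusted p = 0.00841) and SLC3A2 (higher, adjusted p = 0.0447), and 11 snoRNA rows were then lower. The snoRNA rows rest on 24 to 233 reads per library, and 8 to 10 of them were lower when single replicates were left out.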
